A study of Mus musculus with 21 samples.

Results

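The let-7 family guide strands are the 8 mature microRNAs let-7a-5p, let-7b-5p, let-7c-5p, let-7d-5p, let-7e-5p, let-7f-5p, let-7g-5p and let-7i-5p, each a row of the count table, picked by name. They are 8 of 1903 named microRNAs in the table, and all 8 were counted in all 21 libraries. Each library is the left ventricular myocardium of 1 C57BL/6J mouse. In TAC+PDE5A-I (n = 5) mice had transverse aortic constriction (TAC), a surgery that loads the left ventricle with pressure, and received sildenafil, an inhibitor of phosphodiesterase 5A. In TAC+PDE9A-I (n = 6) they had TAC and received PF-04449613, an inhibitor of phosphodiesterase 9A. In TAC (n = 5) and in Sham (n = 5), the mock surgery, they received no drug. Both drugs ran for 4 weeks, starting at week 1 after the operation; the sources used here give neither doses nor ages. Whole myocardium holds many cell types, so fewer cells of a type and less RNA per cell cannot be told apart.

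A microRNA guide strand sits in an Argonaute protein and pairs with messenger RNAs, mainly through its seed, the stretch that starts at its second base. Members of a family share the seed and therefore much of their target range, while the bases beyond it differ. let-7 was found in the worm Caenorhabditis elegans as a timer of development. In mammals its guides are abundant in differentiated tissue, heart included, and are known to repress growth and cell cycle genes such as Hmga2 and Ras genes. Each guide is cut from a hairpin, and the RNA-binding protein Lin28 blocks that step for let-7 in early development.

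The mature sequences are shown because the members differ by so few bases, and because the sildenafil values are set against those bases further on. RefSeq (GRCm38.p6) gave a sequence for all 8. Each line runs 5′ to 3′, the seed (bases 2 to 8) is in capitals, and miR-98-5p, a family member under another name, is added for comparison.
let-7a-5p: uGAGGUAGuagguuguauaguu
let-7b-5p: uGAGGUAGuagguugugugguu
let-7c-5p: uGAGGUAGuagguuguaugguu
let-7d-5p: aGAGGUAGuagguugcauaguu
let-7e-5p: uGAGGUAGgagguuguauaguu
let-7f-5p: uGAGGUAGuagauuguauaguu
let-7g-5p: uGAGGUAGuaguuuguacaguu
let-7i-5p: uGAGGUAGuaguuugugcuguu
miR-98-5p: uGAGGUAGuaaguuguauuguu

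All 8 were 22 nt long with 1 seed, and 11 of 1679 mature mouse names with a sequence carried it. Substitutions are written with the let-7a-5p base first, the position counted from 1 at the 5′ end, and then the base of the other member. let-7c-5p differs from let-7a-5p by A19G, let-7e-5p by U9G and let-7f-5p by G12A. let-7b-5p has A17G and A19G, let-7d-5p U1A and U16C, let-7g-5p G12U and U18C, and let-7i-5p G12U, A17G, U18C and A19U. Of the 28 pairs of members, 4 differ by 1 base, and the most distant pair differs by 6. The sources used here give neither the aligner settings nor the rule for reads that match several members, so reads of such close relatives can have been assigned to one another. The number of G and C bases ran from 7 of 22 in let-7f-5p to 10 in let-7b-5p, with 8 in let-7a-5p and let-7g-5p and 9 in the other members. Positions 11 and 12 read GG in let-7a-5p, let-7b-5p, let-7c-5p, let-7d-5p and let-7e-5p, GA in let-7f-5p and GU in let-7g-5p and let-7i-5p.

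The 8 guides are contained in 11 hairpins on 7 chromosomes in GRCm38.p6. Mirlet7a-1 (chr13:48538179-48538272), Mirlet7f-1 (chr13:48537829-48537917) and Mirlet7d (chr13:48536012-48536114) lie on the minus strand in exons of the long noncoding RNA 6720427I07Rik of GENCODE M21. Mirlet7c-2 (chr15:85706603-85706697) and Mirlet7b (chr15:85707319-85707403) lie on the plus strand in exons of the noncoding gene Lncppara. Mirlet7i (chr10:122985640-122985724, minus strand) lies in an exon of the transcribed pseudogene D630033A02Rik. The other 5 are intronic on the plus strand: Mirlet7g (chr9:106178840-106178927) in Wdr82, Mirlet7e (chr17:17830352-17830444) in Spaca6, Mirlet7f-2 (chrX:151912346-151912428) in Huwe1, Mirlet7c-1 (chr16:77599657-77599750) in Mir99ahg, and Mirlet7a-2 (chr9:41536716-41536811) in the noncoding gene 3110039I08Rik. For let-7a-5p, let-7c-5p and let-7f-5p the mature counts do not tell which of the 2 hairpins was the source.

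Total counts were 1205417 to 3969716 per TAC+PDE5A-I library and 5373960 to 8497792 per TAC library, a difference of means of 2268525 against 6531290 (two-sided exact permutation test, p = 0.00794, the smallest that 252 arrangements allow). TAC+PDE9A-I 5 had 1546318 counts, its 5 group mates 4785164 to 7532591, while Sham libraries held 3766517 to 7490436. The 4 libraries under 2000000 counts (TAC+PDE5A-I 3, 4 and 5 and TAC+PDE9A-I 5) stood apart from the rest on the first principal component of log2 CPM (50.3% of the variance), with scores of 38.2 to 48.5. TAC+PDE5A-I 1 and 2 scored 14.5 and 5.98, and the other 15 libraries had negative scores. Tests and pattern values that rest on these 4 libraries are therefore given with and without them, or library by library. Levels are CPM (counts scaled to a common library total) after TMM scaling, which sets the libraries to a common level by the bulk of their microRNAs. The lowest count of any member in any library was 783 (let-7g-5p in TAC+PDE5A-I 5).

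In TAC and Sham hearts let-7f-5p was the most abundant guide and let-7e-5p the least. let-7f-5p averaged 15590 ± 2556 CPM in TAC and 20410 ± 3433 CPM in Sham (SD, n = 5 each). let-7e-5p averaged 405 ± 54.7 CPM in TAC and 318 ± 37.0 CPM in Sham. All members are equally long, so length does not enter these levels. They rest on reads, which can have been assigned between close relatives, and how evenly each sequence was captured was not tested. The orders below are therefore orders of counted reads. In TAC the order below let-7f-5p was let-7c-5p, let-7a-5p, let-7i-5p, let-7g-5p, let-7b-5p, let-7d-5p and let-7e-5p, and among neighbours in that order only let-7b-5p and let-7d-5p had ranges that overlapped. In Sham it was let-7a-5p, let-7c-5p, let-7g-5p, let-7i-5p, let-7d-5p, let-7b-5p and let-7e-5p, and the ranges overlapped between let-7a-5p and let-7c-5p, between let-7g-5p and let-7i-5p, and between let-7d-5p and let-7b-5p. In TAC+PDE5A-I let-7c-5p had the highest mean and every pair of neighbours overlapped.

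**Figure D1:**
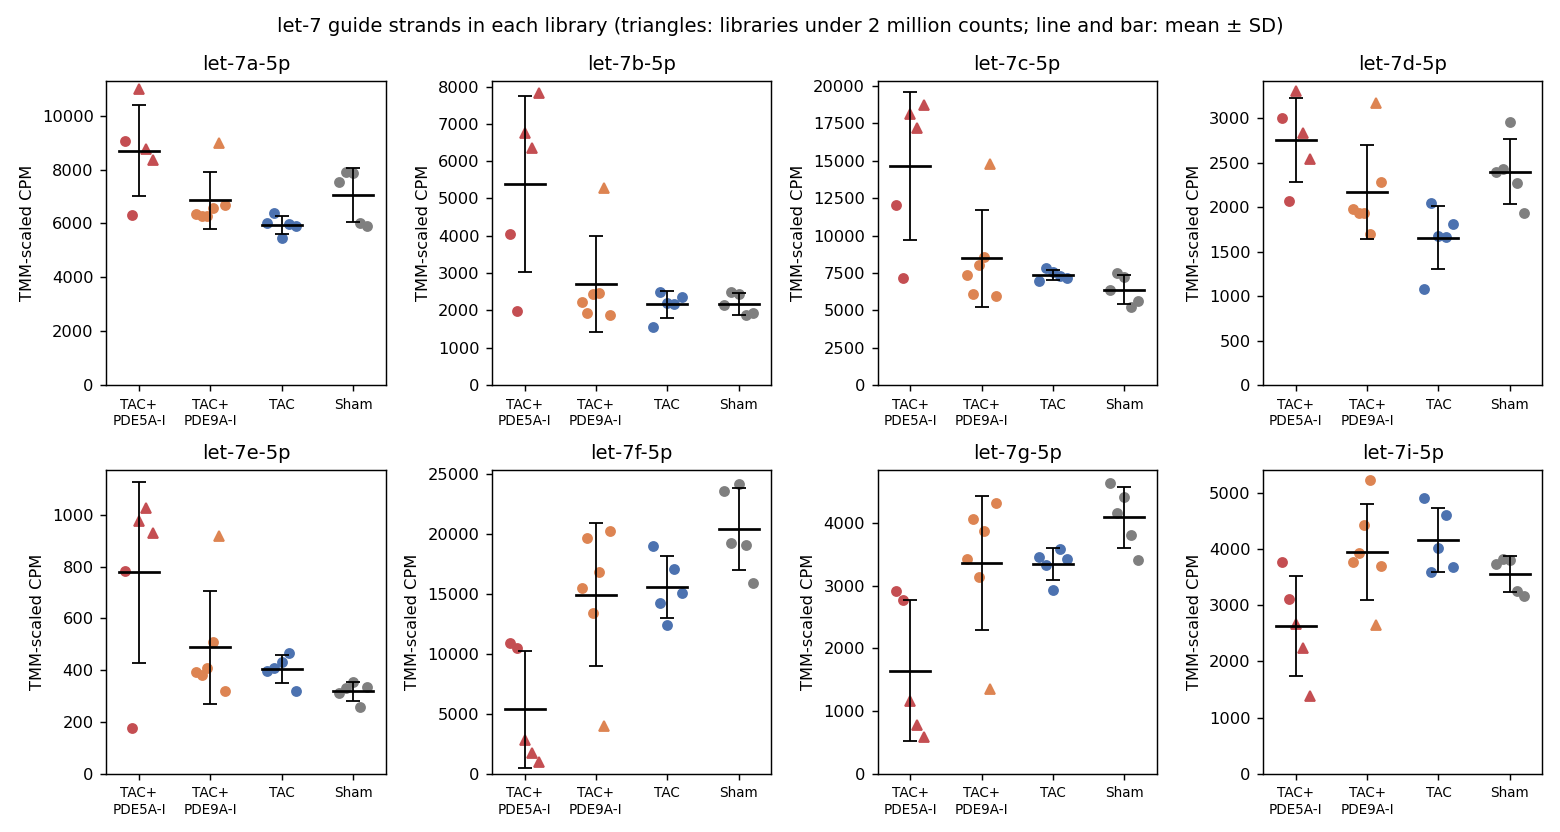
TMM-scaled CPM (y axis, from 0) of each guide in each library of the 4 groups (x axis), with triangles for the 4 libraries under 2000000 counts and black lines and bars for mean ± SD. In let-7f-5p and let-7g-5p the 3 TAC+PDE5A-I triangles and the TAC+PDE9A-I triangle lie below all other libraries, and in let-7b-5p and let-7c-5p they lie above all others.

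Sildenafil in TAC, the comparison of TAC+PDE5A-I with TAC, asked what phosphodiesterase 5A inhibition does to microRNAs of the pressure-loaded heart. The family split: let-7a-5p, let-7b-5p, let-7c-5p, let-7d-5p and let-7e-5p rose, and let-7f-5p, let-7g-5p and let-7i-5p fell. That is 8 of 8 with a Benjamini-Hochberg adjusted p under 0.05 (edgeR quasi-likelihood F test, adjusted over 561 microRNAs), which is what called means throughout, where 46.3% of all tested microRNAs were called (21.6% higher and 24.8% lower). The median log2 fold change was 0.64 over the 8 members and -0.31 over all 561 microRNAs. None of these 8 calls held without the 4 libraries under 2000000 counts.

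let-7f-5p, the guide with the highest counts in TAC and Sham, measured 10924, 10456, 2799, 1702 and 983 CPM in TAC+PDE5A-I 1 to 5, against 19038, 14265, 12429, 17097 and 15118 CPM in TAC 1 to 5. Every TAC+PDE5A-I library lay below every TAC library, and replicates 3, 4 and 5 lay far below replicates 1 and 2. The log2 fold change was -1.54 ± 0.52 (SE, adjusted p = 0.0212), a 2.90-fold fall. let-7g-5p, made from a hairpin of its own in Wdr82, measured 2923, 2779, 1163, 781 and 584 CPM in TAC+PDE5A-I, against 3456, 3334, 2929, 3591 and 3427 CPM in TAC. The groups did not overlap here either, but TAC+PDE5A-I 1 fell just short of the lowest TAC library. Its log2 fold change was -1.02 ± 0.37 (adjusted p = 0.029). let-7i-5p measured 3768, 3104, 2667, 2246 and 1389 CPM in TAC+PDE5A-I, against 4909, 3599, 4015, 4613 and 3684 CPM in TAC. The groups overlapped through TAC+PDE5A-I 1, and the log2 fold change was -0.66 ± 0.22 (adjusted p = 0.0205).

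Of the guides that rose, let-7c-5p changed most in absolute level. It measured 12066, 7190, 18145, 17209 and 18731 CPM in TAC+PDE5A-I 1 to 5, against 6933, 7851, 7564, 7312 and 7170 CPM in TAC 1 to 5. Replicate 2 lay within the TAC range and the other 4 treated libraries lay above it. The log2 fold change was 0.99 ± 0.26 (adjusted p = 0.00571). let-7b-5p, which is cut from the same transcript as one of the let-7c hairpins, measured 4061, 1977, 6749, 6356 and 7828 CPM in TAC+PDE5A-I, against 1567, 2496, 2210, 2173 and 2356 CPM in TAC. Again replicate 2 alone lay within the TAC range. Its log2 fold change, 1.32 ± 0.32 (adjusted p = 0.00379), had the greatest size among the 5 that rose.

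let-7a-5p, the family's founding sequence, measured 9068, 6301, 11012, 8781 and 8343 CPM in TAC+PDE5A-I, against 6033, 6371, 5459, 5998 and 5897 CPM in TAC. Replicate 2 was again inside the TAC range, and the log2 fold change was 0.55 ± 0.16 (adjusted p = 0.0114). let-7d-5p measured 3008, 2074, 3310, 2838 and 2539 CPM in TAC+PDE5A-I, against 1084, 2045, 1673, 1670 and 1816 CPM in TAC. These groups did not overlap, by a gap of few CPM, and the log2 fold change was 0.73 ± 0.20 (adjusted p = 0.00752). let-7e-5p, the guide with the lowest mean level in each group, measured 782, 176, 975, 1027 and 930 CPM in TAC+PDE5A-I, against 398, 407, 433, 468 and 320 CPM in TAC. Replicate 2 lay below all TAC libraries and the other 4 lay above all of them, and the log2 fold change was 0.94 ± 0.34 (adjusted p = 0.0308). In all, 3 of 8 members had groups that did not overlap, where 33.9% of all tested microRNAs did.

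**Figure D2:**
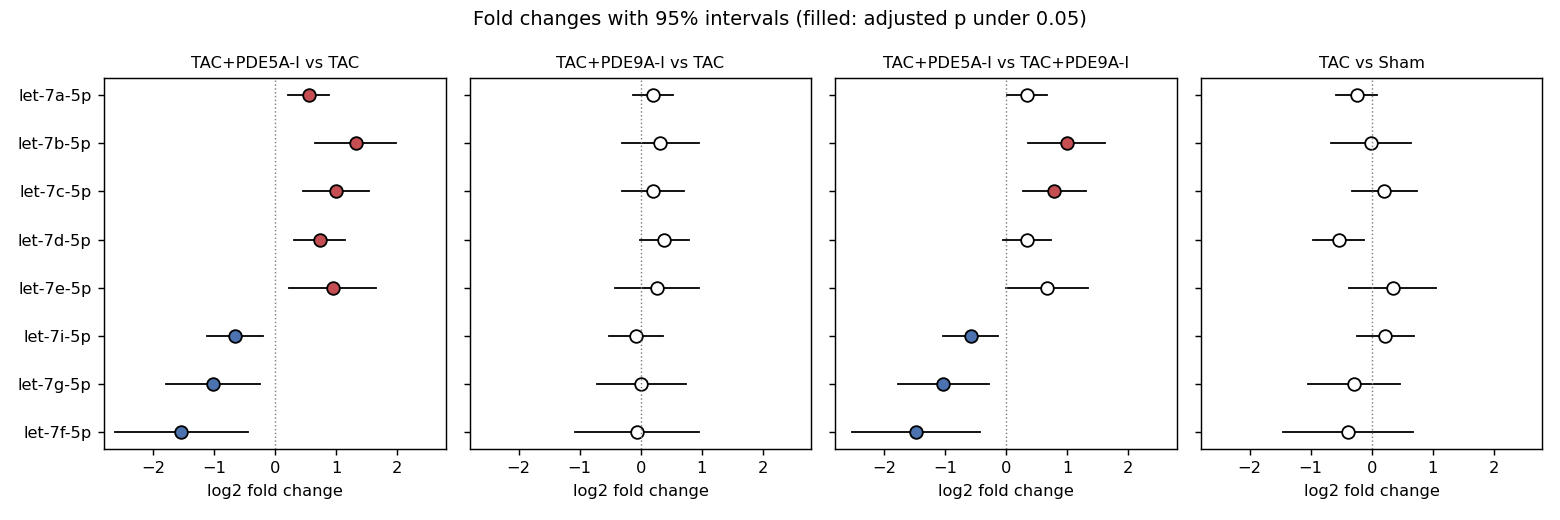
log2 fold changes (x axis) of the 8 guides (y axis) with 95% intervals in the 4 comparisons, filled where the adjusted p was under 0.05, red for higher and blue for lower. In TAC+PDE5A-I against TAC 5 guides lie right of 0 and 3 left of it, while no point is filled in TAC+PDE9A-I against TAC or in TAC against Sham.

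Without the 4 libraries under 2000000 counts, an alternative chosen after the data were seen, 0 of 8 members were called in TAC+PDE5A-I against TAC (edgeR, 3 of 8 at an unadjusted p under 0.05). Of all 660 microRNAs tested in that fit, 41 were called higher and 81 lower. let-7d-5p then had a log2 fold change of 0.63 (adjusted p = 0.0502), let-7f-5p -0.53 (0.0737), let-7a-5p 0.38 (0.0881), let-7b-5p 0.50 (0.153), let-7c-5p 0.40 (0.173), let-7i-5p -0.26 (0.331), let-7g-5p -0.21 (0.364) and let-7e-5p 0.26 (0.663). Each member had the same sign as in all libraries. With a correction for GC content, fitted per library on the 487 of 561 microRNAs with a sequence, all 8 members were called higher, by 1.14 to 3.37 on the log2 scale, and let-7f-5p, let-7g-5p and let-7i-5p turned round to 1.14, 1.20 and 1.20. Of all 487 microRNAs 112 were called higher and 44 lower with that correction. A fit of TAC+PDE5A-I and TAC alone called 4 members higher and 0 lower, and without the filter on low counts 2 were called higher and 3 lower. Among all microRNAs, the fit of these groups called 107 of 462 higher and 100 lower. Without the filter 58 of 832 were called higher and 143 lower. With upper-quartile scaling, which moved the median of all microRNAs to 0.16, let-7g-5p (-0.63, adjusted p = 0.0849) and let-7i-5p (-0.20, adjusted p = 0.355) were not called. In refits without 1 library each, let-7b-5p, let-7c-5p and let-7i-5p were called in 21 of 21. let-7f-5p was not called without TAC+PDE5A-I 3 or without TAC+PDE5A-I 4 (adjusted p up to 0.0706), and let-7g-5p was not called without TAC+PDE5A-I 3, 4 or 5 or without TAC 4 (up to 0.0811). let-7a-5p was called in 14, let-7d-5p in 16 and let-7e-5p in 9 of the 21 refits. Among mice with ear tags in the 500s (2 TAC+PDE5A-I and 1 TAC), the differences of mean log2 CPM were -0.22 for let-7f-5p, 0.36 for let-7b-5p and 0.30 for let-7c-5p. For let-7a-5p, let-7d-5p, let-7e-5p, let-7g-5p and let-7i-5p they were 0.47, 0.58, -0.22, -0.04 and -0.23. There let-7e-5p was opposite in sign to its call. Among those in the 600s (3 TAC+PDE5A-I and 2 TAC), which hold the 3 shallow sildenafil libraries, the first 3 were -3.26, 1.62 and 1.32. The other 5 were 0.65, 0.72, 1.335, -2.11 and -1.02 in the same order. No TAC+PDE5A-I mouse had a tag in the 100s.

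The summed share of the family in TAC+PDE5A-I and TAC differed by less than the larger SD, while its make-up shifted. The 8 guides together made up 4.34% ± 0.455 of all counts in TAC+PDE5A-I (n = 5), 4.51% ± 0.484 in TAC+PDE9A-I (n = 6), 4.09% ± 0.166 in TAC (n = 5) and 4.17% ± 0.286 in Sham (n = 5; all SD). Over the 21 libraries the share ran from 3.84% to 5.39%, and the 4 libraries under 2000000 counts lay inside that range, at 3.96% to 4.60%. The share depends on what it is divided by: with the 3 most abundant microRNAs (miR-22-3p, miR-133a-3p and miR-486b-5p) left out of the total it was 9.74% in TAC+PDE5A-I, 7.89% in TAC+PDE9A-I, 6.59% in TAC and 7.33% in Sham.

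Within the family, shares need no scaling between libraries. let-7f-5p made up 23.4%, 30.7%, 5.98%, 4.16% and 2.38% of the 8 guides in TAC+PDE5A-I 1 to 5, against 33.9% to 43.9% in TAC, and 40.2% to 46.5% in Sham. TAC+PDE9A-I 5 stood at 9.65%, against 33.4% to 44.6% among the remaining 5 PF-04449613 libraries. Every TAC+PDE5A-I library and TAC+PDE9A-I 5 lay below every TAC and Sham library. let-7c-5p took the first place in TAC+PDE5A-I 1, 3, 4 and 5 and in TAC+PDE9A-I 5, with 25.9% to 45.3% and 36.0% of the 8, and let-7f-5p held the first place in the other 16 libraries. let-7f-5p, let-7g-5p and let-7i-5p together made up 37.8%, 48.0%, 14.2%, 11.6% and 7.15% in TAC+PDE5A-I 1 to 5, 19.4% in TAC+PDE9A-I 5, and between 52.3% and 63.1% elsewhere. Counting error is small against these differences: the widest 95% Wilson interval of a member's share in 1 library reached 0.415 percentage points to either side, and it covers counting error only, since PCR copies of 1 molecule can be counted as separate reads.

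**Figure D3:**
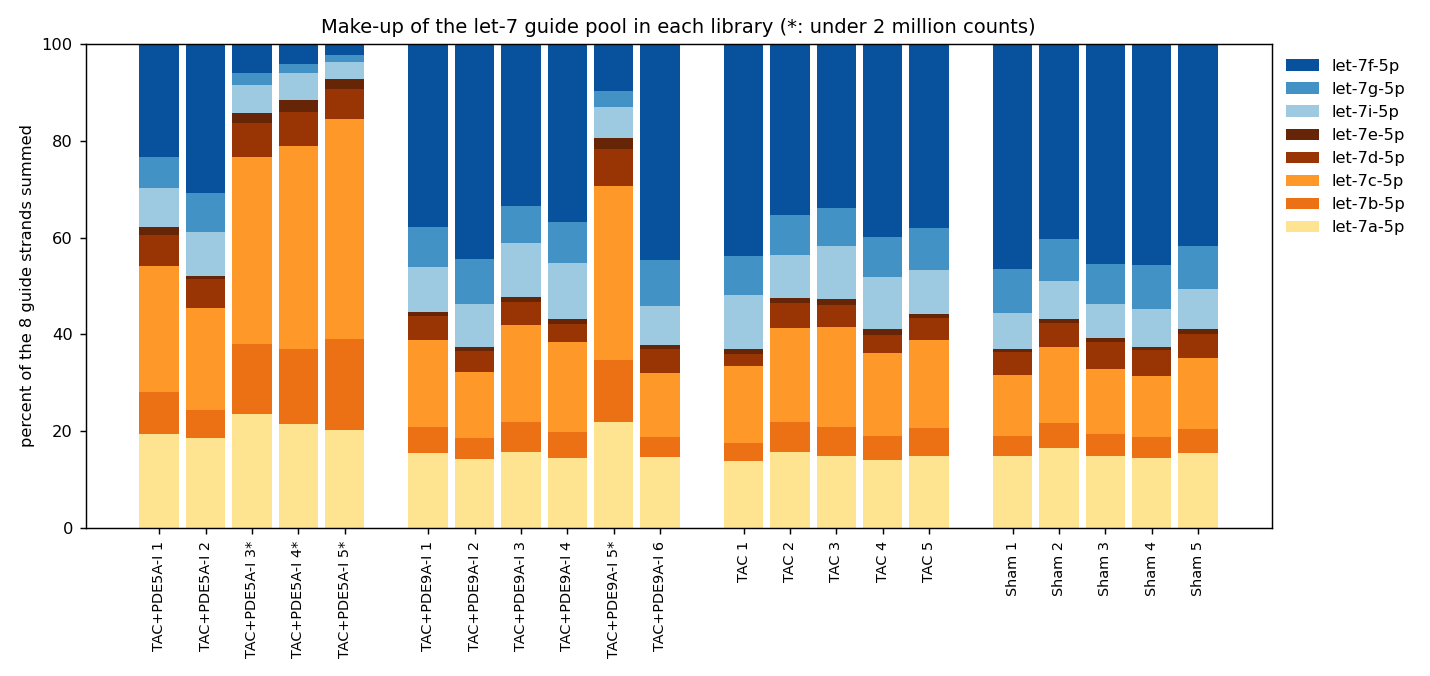
Percent of the summed 8 guides (y axis) held by each guide in each of the 21 libraries (x axis, stars for libraries under 2000000 counts), with let-7f-5p, let-7g-5p and let-7i-5p in blue at the top and the other 5 in yellow to brown. The blue part takes 7.15% to 48.0% of the bar in TAC+PDE5A-I and 19.4% in TAC+PDE9A-I 5, and 52.3% or more in all other libraries.

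The ratio of let-7b-5p to let-7f-5p, the guides with the most and the fewest G and C bases, put the shift into 1 number per library. It was 0.372, 0.189, 2.41, 3.73 and 7.97 in TAC+PDE5A-I 1 to 5, against 0.0823, 0.175, 0.178, 0.127 and 0.156 in TAC 1 to 5. In log2 it averaged 0.47 ± 2.29 in TAC+PDE5A-I, -2.40 ± 1.43 in TAC+PDE9A-I, -2.85 ± 0.46 in TAC and -3.23 ± 0.22 in Sham (SD). All 5 sildenafil libraries were above the TAC range, by little in replicate 2, and let-7b-5p outnumbered let-7f-5p in replicates 3, 4 and 5. TAC+PDE9A-I 5, whose mouse received no sildenafil, had a ratio of 1.33, against 0.0929 to 0.183 among its 5 group mates. Depth moved with the ratio: the 4 libraries in which let-7b-5p outnumbered let-7f-5p were those under 2000000 counts. TAC+PDE5A-I 2, with 3969716 counts, and Sham 4, with 3766517, were of like depth, and their let-7f-5p shares of the 8 were 30.7% and 45.6%. The part of depth, or of what lowered it, in the sildenafil result was not tested.

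**Figure D4:**
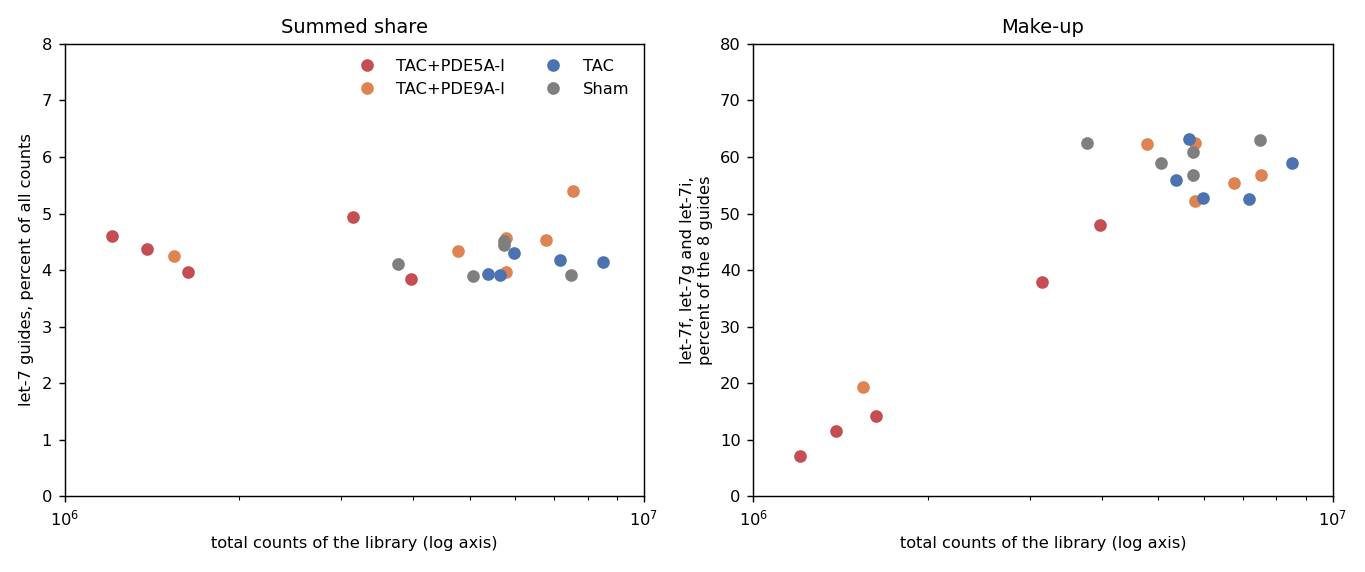
Total counts of each library (x axis, log scale) against the share of the 8 guides in all counts (left) and the share of let-7f-5p, let-7g-5p and let-7i-5p within the 8 (right), in percent. The summed share stays between 3.84% and 5.39% at all depths, whereas the share within the 8 is 7.15% to 19.4% in the 4 shallow libraries, 37.8% and 48.0% in TAC+PDE5A-I 1 and 2, and 52.3% or more elsewhere.

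The 4 pairs of guides that differ by 1 base can be compared as ratios of counts within a library, and 1 of these pairs, let-7f-5p and let-7a-5p, joins a guide that fell to one that rose. let-7f-5p over let-7a-5p (G12A) was 1.21, 1.66, 0.254, 0.194 and 0.118 in TAC+PDE5A-I 1 to 5 and 0.442 in TAC+PDE9A-I 5, against 2.24 to 3.16 in TAC and 2.44 to 3.17 in Sham. Here all treated values, and the value of TAC+PDE9A-I 5, lay below both untreated groups. let-7c-5p over let-7a-5p (A19G) was 1.14 to 2.25 in TAC+PDE5A-I, against 1.15 to 1.39 in TAC, and let-7e-5p over let-7a-5p (U9G) was 0.0280 to 0.117 in TAC+PDE5A-I, against 0.0543 to 0.0794 in TAC. Those ranges overlapped. let-7b-5p over let-7c-5p (A17G) was 0.275 to 0.418 in TAC+PDE5A-I, against 0.226 to 0.329 in TAC, and overlapped as well. Of the 4 pairs that differ by 1 base, only let-7f-5p and let-7a-5p gave groups without overlap in TAC+PDE5A-I against TAC. As the only pair of the 4 called in opposite directions, it could be foreseen to separate most. The ratio of let-7b-5p to let-7f-5p, which differ by 3 bases, did not overlap either. The part of the base exchange was not tested.

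By sequence, the 5 guides that rose in TAC+PDE5A-I against TAC were the 5 with GG at positions 11 and 12, and the 3 that fell were the 3 without it. Number of G and C bases alone did not order them: let-7i-5p fell and let-7c-5p, let-7d-5p and let-7e-5p rose at the same 9 G and C bases, and let-7a-5p rose and let-7g-5p fell at the same 8. Of the 479 other tested microRNAs with a sequence long enough, 33 (6.89%) had GG there, with a median log2 fold change of 0.26 in TAC+PDE5A-I against TAC, and the 446 without it had -0.35. These medians were 0.36 and -0.0029 without the 4 libraries under 2000000 counts. The sets with and without GG were not matched for length or for the number of G and C bases, to which GG itself adds. The medians therefore do not separate GG from base composition. The medians also differed where no guide was called, at 0.14 with GG and -0.06 without it in TAC+PDE9A-I against TAC, and at 0.15 and -0.05 in TAC against Sham, comparisons that share the TAC libraries. Without the 4 libraries they lay close together in TAC+PDE9A-I against TAC, at 0.077 and 0.012. In TAC against Sham they were then 0.14 and -0.06. The signs of the guides did not follow these bases in TAC against Sham, nor in TAC+PDE5A-I against TAC with the GC correction, where all 8 were positive. This split was noticed after the values were seen and is a description of 8 closely related sequences.

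Base composition of the rest of the table did move with the sildenafil comparison. Among the other 22-nt microRNAs, the median log2 fold change in TAC+PDE5A-I against TAC was -1.82 at 7 G and C bases (n = 11), -2.31 at 8 (n = 31), -1.60 at 9 (n = 40) and -0.70 at 10 (n = 43). The let-7 guides at these compositions had -1.54 (let-7f-5p), 0.55 and -1.02 (let-7a-5p and let-7g-5p), 0.73 to 0.99 and -0.66 (let-7d-5p, let-7e-5p, let-7c-5p and let-7i-5p) and 1.32 (let-7b-5p). Each lay above the median of the microRNAs with as many G and C bases. Of the 31 others with 8 G and C bases 1 had a value above 0, and of the 40 with 9 there were 2. The medians without the 4 shallow libraries were -1.05, -1.32, -0.73 and -0.16 at 7, 8, 9 and 10 G and C bases, and 8 of 8 guides again lay above the median at their composition. The part of base composition in the result was not tested.

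**Figure D5:**
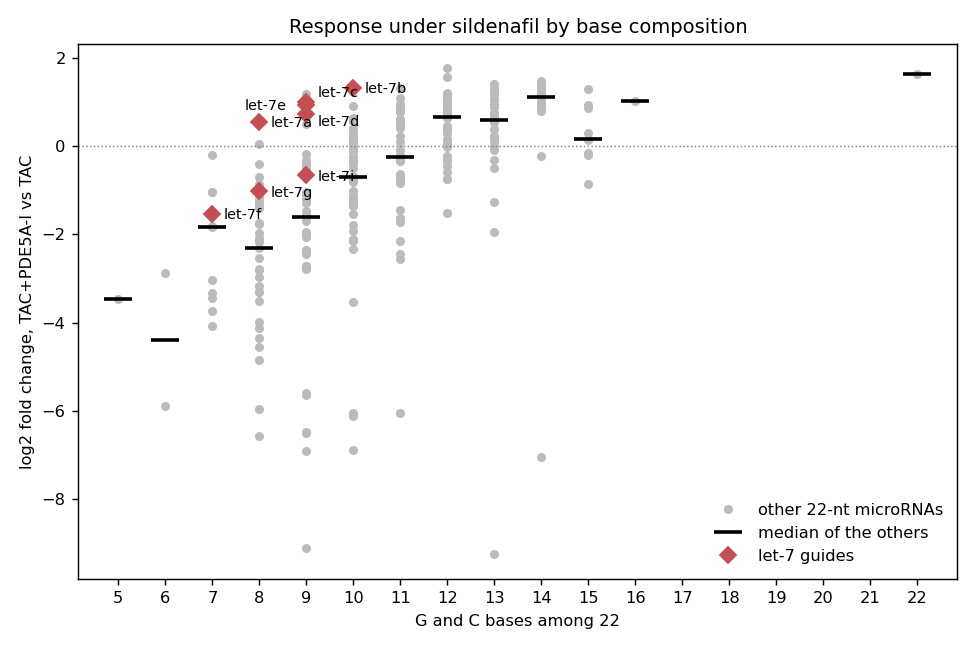
Number of G and C bases (x axis) and log2 fold change in TAC+PDE5A-I against TAC (y axis) of the 265 tested microRNAs of 22 nt with a sequence: grey points for 257 others, black bars for their median at each composition and red diamonds for the 8 guides. All 8 diamonds lie above the black bar at their composition, and 3 of them lie below 0.

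Set against PF-04449613 at the same time point, sildenafil gave higher let-7b-5p and let-7c-5p and lower let-7f-5p, let-7g-5p and let-7i-5p. In TAC+PDE5A-I against TAC+PDE9A-I the log2 fold change was 0.99 ± 0.30 for let-7b-5p (adjusted p = 0.0189) and 0.79 ± 0.24 for let-7c-5p (0.02), and -1.48 ± 0.50 for let-7f-5p (0.03), -1.03 ± 0.36 for let-7g-5p (0.0316) and -0.58 ± 0.21 for let-7i-5p (0.0392). These are 5 of 8 called, where 34.8% of all microRNAs were (15.2% higher and 19.6% lower). For let-7a-5p the difference was 0.34 (95% interval 0.02 to 0.67), for let-7d-5p 0.34 (-0.05 to 0.74) and for let-7e-5p 0.67 (-0.01 to 1.35), and none of these passed. No member had groups that did not overlap, and 1.96% of all microRNAs did. TAC+PDE9A-I 5 held the overlap in let-7f-5p and let-7g-5p, and in the other 6 members the groups overlapped without it too. Without the 4 libraries under 2000000 counts let-7f-5p was the 1 member called, at -0.69 (adjusted p = 0.0283), where 20 of 660 microRNAs were called higher and 84 lower. A fit of these groups alone called 0 of 8 members and 0 microRNAs in all (edgeR, 162 microRNAs at an unadjusted p under 0.05). With the GC correction let-7f-5p, let-7g-5p and let-7i-5p turned to 0.49, 0.61 and 0.76 and were not called, while let-7a-5p, let-7b-5p and let-7c-5p were called higher. Of 487 microRNAs 50 were called higher and 24 lower with that correction. Without the filter and with the ear tag series as covariate 0 members were called higher. With doses unknown here, the comparison is matched in time only.

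PF-04449613 in TAC, the comparison of TAC+PDE9A-I with TAC, gave 0 of 8 called members, and 0 of all 561 microRNAs (0% by edgeR, with 16 of 561 and 0 of 8 at an unadjusted p under 0.05; DESeq2 called 1 of 561 and 0 of 8). Log2 fold changes ran from -0.08 (let-7i-5p) to 0.39 (let-7d-5p), with a median of 0.20 over the members and -0.04 over all microRNAs. let-7f-5p measured 3970 CPM at the lowest, 16190 at the median and 20256 at the highest in the 6 TAC+PDE9A-I libraries, against 12429, 15118 and 19038 CPM in the 5 TAC libraries. The lowest was TAC+PDE9A-I 5, and the other 5 treated libraries lay at 13379 CPM or more. let-7c-5p measured 5985, 7710 and 14785 CPM at the lowest, median and highest in TAC+PDE9A-I, against 6933, 7312 and 7851 CPM in TAC, and here TAC+PDE9A-I 5 was the highest. Without that library the log2 fold changes ran from -0.02 (let-7c-5p) to 0.25 (let-7d-5p), and let-7f-5p turned to 0.14, let-7g-5p measured 0.18 and let-7i-5p 0.03, with no member called. The 95% intervals in all libraries reached from -1.08 to 0.96 for let-7f-5p and from -0.12 to 0.53 for let-7a-5p, and changes of those sizes lie within the intervals.

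Pressure overload itself, TAC against Sham, gave 0 of 8 called members, where 2.32% of all microRNAs were called, 2.14% higher and 0.178% lower (edgeR; 1 of 8 members at an unadjusted p under 0.05, and 88 of 561 microRNAs). The member with the smallest p was let-7d-5p, which measured 1084, 2045, 1673, 1670 and 1816 CPM in TAC, against 2394, 2437, 2962, 2279 and 1938 CPM in Sham. Only TAC 2 reached into the Sham range. Its log2 fold change was -0.54 ± 0.20 (adjusted p = 0.17), and it was called lower by DESeq2 (adjusted p = 0.0181) and without the 4 shallow libraries (0.0429), which lie in neither group but share the estimate of the spread. In a fit of TAC and Sham alone let-7e-5p and let-7i-5p were called higher (adjusted p = 0.0233 and 0.0452), where all 4 groups gave 0.35 ± 0.34 and 0.23 ± 0.22 on the log2 scale (adjusted p = 0.83 and 0.824). Log2 fold changes of the other members were -0.39 ± 0.51 for let-7f-5p, -0.29 ± 0.36 for let-7g-5p, -0.24 ± 0.16 for let-7a-5p, -0.01 ± 0.31 for let-7b-5p and 0.21 ± 0.26 for let-7c-5p. The sign for let-7b-5p turned with the scaling, to 0.17 by total counts and 0.01 by upper quartile. No member had groups that did not overlap, where 16.9% of all microRNAs did.

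Some ratios between members, which no scaling changes, did not overlap between TAC and Sham. let-7c-5p over let-7a-5p was 1.15 to 1.39 in TAC and 0.845 to 0.948 in Sham, so let-7c-5p outnumbered let-7a-5p in each TAC heart and in no Sham heart. let-7b-5p over let-7c-5p was 0.226 to 0.329 in TAC and 0.333 to 0.355 in Sham, which also did not overlap. let-7e-5p over let-7a-5p was 0.0543 to 0.0794 in TAC and 0.0417 to 0.0567 in Sham, and let-7f-5p over let-7a-5p was 2.24 to 3.16 in TAC and 2.44 to 3.17 in Sham, and both overlapped. let-7i-5p made up 8.92% to 11.3% of the 8 guides in TAC and 7.13% to 8.29% in Sham, again without overlap. For let-7c-5p the share was 15.97% to 20.6% in TAC and 12.55% to 15.64% in Sham, without overlap as well. The shares of the other members overlapped. These ratios were singled out after their values were seen and carry no test.

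Relatives and neighbours of the family were read from a list of 7 microRNAs: miR-98-5p and miR-202-3p, and 5 guides whose hairpins are known to lie in clusters with let-7 hairpins, the miR-99/100 and miR-125 guides. In TAC+PDE5A-I against TAC 3 of the 6 that could be tested rose and 2 fell, with a median log2 fold change of 0.25. Of all microRNAs 21.6% were called higher and 24.8% lower there. miR-98-5p, whose hairpin lies beside Mirlet7f-2 in Huwe1 and which has 7 G and C bases and AG at positions 11 and 12, measured 247, 256, 30.4, 20.2 and 17.9 CPM in TAC+PDE5A-I 1 to 5, against 567, 358, 326, 460 and 329 CPM in TAC 1 to 5. The groups did not overlap, and the log2 fold change was -1.82 ± 0.64 (adjusted p = 0.025). miR-125a-5p, beside Mirlet7e, rose by 1.40 ± 0.24 (adjusted p = 0.000593), miR-99b-5p of the same cluster by 0.88 ± 0.19 (0.00183), and miR-125b-5p by 0.78 ± 0.20 (0.00506). miR-99a-5p, beside Mirlet7c-1, fell by 0.72 on the log2 scale (adjusted p = 0.0455), although let-7c-5p rose, and miR-100-5p, beside Mirlet7a-2, had -0.28 ± 0.27 (adjusted p = 0.416). Without the 4 libraries under 2000000 counts miR-125a-5p (0.84, adjusted p = 0.00539) and miR-99b-5p (0.55, 0.0437) were still called higher and miR-98-5p lower (-0.68, 0.0363), while miR-125b-5p (0.55, 0.117) and miR-99a-5p (-0.25, 0.395) were not called. With the GC correction miR-98-5p turned to 0.63 (adjusted p = 0.146), and miR-125a-5p and miR-125b-5p were the 2 called. In TAC+PDE5A-I against TAC+PDE9A-I 3 of 6 rose and none fell, where 15.2% of all microRNAs were called higher and 19.6% lower. Without the 4 libraries miR-125a-5p was called higher there (0.62, adjusted p = 0.0366) and miR-98-5p lower (-0.66, 0.0455). Of all 660 microRNAs in that fit, 20 were called higher and 84 lower. With the GC correction 2 of 6 were called higher and 0 lower, where 50 of 487 microRNAs were called higher and 24 lower. In all libraries none of the 6 was called in TAC+PDE9A-I against TAC or in TAC against Sham. Without the 4 libraries miR-99a-5p (0.45, adjusted p = 0.0461) and miR-99b-5p (0.45, 0.0461) were called higher in TAC against Sham. Of all 660 microRNAs in that fit, 46 were called higher and 29 lower. miR-202-3p, whose RefSeq seed ends in another base, had 0 counts in all 21 libraries, which allows up to 0.353 CPM in the deepest and 2.49 CPM in the shallowest library, for counting error only.

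The opposite arms of the let-7 hairpins, the 3p strands that are usually degraded, moved in both directions as well. Of 10 that could be tested, 3 rose and 4 fell in TAC+PDE5A-I against TAC, where 21.6% of all microRNAs were called higher and 24.8% lower. None of the 10 was called in TAC+PDE9A-I against TAC or in TAC against Sham. let-7d-3p rose by 1.32 ± 0.26 and let-7e-3p by 0.91 ± 0.22 on the log2 scale (adjusted p = 0.00151 and 0.00394), in the direction of their guides. let-7f-1-3p, from the hairpin beside that of let-7d-3p in the same noncoding RNA, was at -2.71 ± 1.01 (adjusted p = 0.0344). Its level was near 0 in TAC+PDE5A-I with an SD above the mean, 4.07 ± 9.10 CPM, against 31.2 ± 4.75 CPM in TAC. let-7c-1-3p was at -2.15 ± 0.73 (adjusted p = 0.022) and the joined row of let-7a-1-3p and let-7c-2-3p at -3.99 ± 0.77 (adjusted p = 0.0013), opposite in sign to let-7c-5p and let-7a-5p. The level of let-7c-1-3p was low as well, at 2.7 ± 2.8 CPM in TAC+PDE5A-I against 13.0 ± 2.7 CPM in TAC (SD). The fourth that fell, let-7f-2-3p, is given no fold here, and the third that rose was let-7b-3p (0.50 ± 0.17, adjusted p = 0.0228). Without the 4 libraries under 2000000 counts let-7d-3p was called higher (0.76, adjusted p = 0.0148), and let-7c-1-3p (-1.40, 0.0125) and the joined row (-2.92, 4.67e-07) were called lower. The other strands lost their calls then, let-7f-1-3p among them (-1.58, adjusted p = 0.187). With the GC correction the joined row and let-7f-2-3p were called lower, and let-7c-1-3p (-1.32, adjusted p = 0.091) and let-7f-1-3p (-1.62, 0.123) were not. The 3 that rose were still called higher with it: let-7d-3p (2.09, adjusted p = 0.00222), let-7b-3p (1.23, 0.00567) and let-7e-3p (1.07, 0.00888). These strands are named after their values were seen.

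By likeness of pattern, and leaving out the 8 guides themselves, the levels closest to let-7b-5p over the 21 libraries were those of miR-320-3p (Pearson r = 0.982 of log2 CPM), miR-744-5p (0.952) and miR-125a-5p (0.952). Closest to let-7f-5p outside the 8 guides were miR-192-5p (0.988), miR-30a-5p (0.985) and miR-26b-5p (0.985). Among the members r was 0.997 between let-7f-5p and let-7g-5p, 0.974 between let-7b-5p and let-7c-5p and -0.922 between let-7b-5p and let-7f-5p. Over the 17 libraries without the 4 shallow ones, r was 0.894, 0.683 and 0.803 for the 3 microRNAs named with let-7b-5p and 0.905, 0.884 and 0.893 for those named with let-7f-5p. Between members it was then 0.953 for let-7f-5p and let-7g-5p, 0.853 for let-7b-5p and let-7c-5p, and -0.414 for let-7b-5p and let-7f-5p. The libraries share their scaling and fall into separate clusters by depth, so these values are a description of that spread and carry no test.

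Lists of microRNAs that mark cell types moved with the same libraries. Unlike the levels above, marker values are CPM by total counts alone, without TMM scaling. Whether their groups overlap after TMM scaling was not tested. The 5 cardiomyocyte markers summed to 158700 to 227600 CPM in TAC+PDE5A-I and 72770 to 147200 CPM in TAC. Most of that sum was miR-133a-3p, at 156800 to 227400 CPM in TAC+PDE5A-I and 65060 to 140300 CPM in TAC. miR-1a-3p went the other way, at 38.62 to 1163 CPM in TAC+PDE5A-I and 2859 to 4823 CPM in TAC. miR-208a-3p, miR-208b-3p and miR-499-5p of this list were likewise lower in TAC+PDE5A-I, each without overlap with TAC. The 2 endothelial markers (miR-126a arms) summed to 1111 to 17660 CPM in TAC+PDE5A-I and 29590 to 41340 CPM in TAC, and the 4 smooth muscle markers (miR-143 and miR-145a arms) to 5419 to 48870 CPM and, in TAC, 76080 to 129500 CPM. In the smooth muscle list miR-143-3p and miR-145a-3p were lower, miR-143-5p overlapped, and miR-145a-5p was higher (753.3 to 955.3 CPM, in TAC 239.5 to 675.5 CPM). The 3 erythroid markers summed to 25.7 to 469 CPM in TAC+PDE5A-I and 441 to 1167 CPM in TAC, and the 5 leukocyte markers to 2366 to 3339 CPM in TAC+PDE5A-I and 1259 to 2544 CPM in TAC. Most of the leukocyte sum in TAC+PDE5A-I was miR-150-5p, at 2006 to 3210 CPM, against 278.9 to 1658 CPM in TAC. miR-142a-3p, miR-142a-5p and miR-223-3p were lower in TAC+PDE5A-I without overlap, and miR-155-5p overlapped. By total counts, cardiomyocyte, endothelial and smooth muscle sums did not overlap between these groups. In TAC+PDE5A-I 1 and 2, the 2 sildenafil libraries that were not shallow, they were 158700 to 163000, 12000 to 17660 and 33840 to 48870 CPM, and these too lay outside the TAC ranges. In the same 2 libraries the erythroid sum was 246 to 469 CPM and the leukocyte sum 2366 to 2457 CPM, and both overlapped TAC. All markers of these 5 lists were detected, and of the 4 markers of other tissues (sum 4.90 to 19.9 CPM in TAC+PDE5A-I, 11.5 to 20.4 CPM in TAC) miR-124-3p, a neuronal microRNA, was at 0 throughout. The part of these cell type markers in the let-7 result was not tested.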

How the data were processed

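The deposited table holds read counts per mature microRNA in 21 libraries, 1 per mouse, which the authors left unnormalised, as its whole numbers and unequal totals show. Per the labels, libraries were made with Illumina's small RNA kit from 500 ng of RNA from frozen tissue. The submitters' processing notes name DESeq 1.26.0, Bowtie 1.1.1, cutadapt 1.8 and CASAVA 1.8.4 without roles; the sources used here give no build or annotation. Of 25958 lines 24055 are blank and hold no count, and no value equals 1.

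Counts were fitted in R 4.3.3 with edgeR 4.0.16 (TMM, filterByExpr by group, robust quasi-likelihood fit of all 4 groups, 17 residual degrees of freedom), with Benjamini-Hochberg adjustment over the 561 microRNAs that passed, all 8 let-7 guides included. The prior count for log2 CPM was 2. DESeq2 1.42.0 was an alternative, as were other scalings, no filter, fits of 2 groups, a replicate block, the ear tag series (100s, 500s or 600s) as covariate, a GC correction (natural spline of 3 degrees of freedom per library) and leaving out each library. The scripts were tested on simulated data. Sequences and hairpins are from RefSeq (GRCm38.p6) and host genes from GENCODE M21. Members and lists were chosen with earlier results of these data known. All 8 members and the 7 related microRNAs are named whatever their result; microRNAs of like pattern are the 3 highest r outside the 8 guides at 100 CPM or more. Replicate numbers did not pair the samples. Ear tags name separate mice. The direct contrast of the drug groups equals the difference of their effects, the TAC libraries being common to both.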

Additional observations from a re-analysis of the deposited data

Results flagged for a closer look

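Samples far from the rest of their group were found in 6 of 44 groups of values tested. Chance gives about 1 in 20 for a single group of values. The 44 share libraries and guides that move together, so their count cannot be set against that rate. In TAC+PDE5A-I, replicate 2 had 176 CPM of let-7e-5p, against 782 to 1027 CPM in the other 4 libraries. The other 5 cases are all TAC+PDE9A-I 5, which is also the shallowest of its group. It had 8982 CPM of let-7a-5p (6274 to 6672 in the other 5), 5292 CPM of let-7b-5p (1883 to 2470), 14785 CPM of let-7c-5p (5985 to 8545) and 917 CPM of let-7e-5p (321 to 509). Its log2 ratio of let-7b-5p to let-7f-5p was 0.41, against -3.43 to -2.45 in the other 5.

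The effect of sildenafil in TAC differed from that of PF-04449613 in 5 members, by the test of the difference itself (edgeR, adjusted over all microRNAs). The difference in log2 fold change was 0.99 for let-7b-5p (adjusted p = 0.0189), 0.79 for let-7c-5p (0.02), -1.48 for let-7f-5p (0.03), -1.03 for let-7g-5p (0.0316) and -0.58 for let-7i-5p (0.0392). Of the 5 sildenafil libraries, 3 lay above every PF-04449613 library for let-7b-5p and for let-7c-5p, 3 lay below every one for let-7f-5p and for let-7g-5p, and 2 did for let-7i-5p. Without the 4 libraries under 2000000 counts the call remained for let-7f-5p alone.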

How the results depend on the processing

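Calls among the 8 guides depended on 4 libraries and on the scaling. TAC+PDE5A-I against TAC gave 5 higher and 3 lower; without the filter 2 were higher, with upper-quartile scaling 1 was lower, in a fit of the 2 groups 0 were lower, with the GC correction 8 were higher and 0 lower, and without the 4 libraries under 2000000 counts 0 were higher and 0 lower. Leaving out 1 library each gave 2 to 5 higher and 1 to 3 lower. TAC+PDE5A-I against TAC+PDE9A-I gave 2 higher and 3 lower; 5 were higher and 1 lower with upper-quartile scaling, 0 higher without the filter, 0 higher and 0 lower in a fit of the 2 groups, 0 higher with the ear tag covariate, 0 lower with the GC correction, and 0 higher and 1 lower without the 4 libraries, with 0 to 3 higher and 0 to 3 lower on leaving out 1 library each. TAC against Sham gave 0 of each; 2 were higher in the fit of the 2 groups, and 1 was lower by DESeq2 and 1 without the 4 libraries. In none of these was the cause tested.

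In TAC+PDE5A-I against TAC, let-7a-5p was not called without Sham 5, TAC 3, TAC+PDE5A-I 1, 3, 4 or 5 or TAC+PDE9A-I 2 (log2 down to 0.20, adjusted p up to 0.278). let-7d-5p was not called without Sham 5, TAC 3 or TAC+PDE5A-I 1, 3 or 4 (0.42, up to 0.1), and let-7e-5p without Sham 5, TAC 1, 2, 3 or 5, TAC+PDE5A-I 1, 3, 4 or 5 or TAC+PDE9A-I 2, 3 or 4 (0.53, up to 0.205). In TAC+PDE5A-I against TAC+PDE9A-I, none of the 5 called members kept its call without TAC+PDE5A-I 3, 4 or 5. let-7b-5p also lost it without Sham 5 or TAC+PDE9A-I 2 or 6, let-7c-5p without Sham 5, TAC 3 or TAC+PDE9A-I 2, 3 or 6, let-7f-5p and let-7g-5p without TAC+PDE9A-I 1, 2, 3, 4 or 6, and let-7i-5p without TAC+PDE9A-I 1, 3, 4 or 6. Over the refits without 1 library each the highest adjusted p was 0.0923, 0.121, 0.0966, 0.0974 and 0.115 for let-7b-5p, let-7c-5p, let-7f-5p, let-7g-5p and let-7i-5p.

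Signs turned as follows. With the GC correction let-7f-5p, let-7g-5p and let-7i-5p were 1.14, 1.20 and 1.20 in TAC+PDE5A-I against TAC and 0.49, 0.61 and 0.76 in TAC+PDE5A-I against TAC+PDE9A-I, and let-7f-5p and let-7i-5p were 0.65 and 0.44 in TAC+PDE9A-I against TAC. In TAC+PDE9A-I against TAC, without the 4 libraries let-7c-5p was -0.00646, let-7f-5p 0.16 and let-7i-5p 0.0450; let-7g-5p was -0.0629 without the filter, -0.0201 in the fit of the 2 groups, -0.18 with the replicate block and -0.16 with the ear tag; let-7i-5p was 0.00062 by total counts and 0.0024 by upper quartile. On leaving out 1 library each, let-7c-5p ran from -0.0164 to 0.26, let-7f-5p from -0.19 to 0.14, let-7g-5p from -0.10 to 0.18 and let-7i-5p from -0.23 to 0.0341. In TAC against Sham let-7b-5p was 0.17 by total counts, 0.0060 by upper quartile, 0.18 without the filter, 0.12 in the fit of the 2 groups and 0.0154 with the ear tag, and -0.0618 to 0.17 on leaving out 1 library each.

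The summed share was 9.74%, 7.89%, 6.59% and 7.33% in TAC+PDE5A-I, TAC+PDE9A-I, TAC and Sham without the 3 highest microRNAs in the total, and 4.64% of TMM-scaled CPM in Sham. With replicate number as a block, which the labels do not tie to a shared animal or batch (1 to 3 of 5 pairs per comparison correlated over 0.1), 4 guides were higher and 3 lower in TAC+PDE5A-I against TAC, 2 and 3 in TAC+PDE5A-I against TAC+PDE9A-I and 0 elsewhere. Each guide had 783 counts or more in every library.

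Over all microRNAs, TAC against Sham called 12 higher and 1 lower, but 75 and 23 in the fit of the 2 groups, 46 and 29 without the 4 libraries, 33 and 14 by DESeq2, 4 and 0 with the ear tag, and 20 and 0 without the filter. TAC+PDE5A-I against TAC called 121 and 139, but 172 and 110 with upper-quartile scaling, 58 and 143 without the filter, 112 and 44 with the GC correction, and 41 and 81 without the 4 libraries. TAC+PDE5A-I against TAC+PDE9A-I called 85 and 110, but 138 and 90 with upper-quartile scaling, 29 and 105 without the filter, 0 and 0 in the fit of the 2 groups (edgeR, 162 at an unadjusted p under 0.05), 50 and 24 with the GC correction, 26 and 89 with the ear tag, 69 and 169 by DESeq2, and 20 and 84 without the 4 libraries.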
